A study of Mus musculus with 8 samples.

Results

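The chemokine system in the spinal cord of *SOD1* G93A mice is described here through 35 genes, 23 chemokine ligands and 12 chemokine receptors, named by gene symbol from the 55291 genes counted. The 8 lumbar spinal cords came from male C57BL/6J mice crossed with the lines that carry the alleles below, all carrying the *SOD1* G93A transgene, a model of amyotrophic lateral sclerosis. In 4 mice both *Ager* alleles, which encode the receptor RAGE, were floxed (Ager fl/fl Cx3cr1 Cre/+, called *Ager*-deleted: E1776, E5231, E5248 and E5568), and in 4 both were intact (Ager +/+ Cx3cr1 Cre/+, called Cre controls: E5386, E5642, E6578 and E6732). Every mouse of both genotypes carried the tamoxifen-inducible Cre in 1 *Cx3cr1* allele and received 5 tamoxifen injections at about 12 weeks of age. The labels give 120 days as the age of all 8, whereas the study's methods describe tissue taken at the humane endpoint. The deletion was limited to cells that express *Cx3cr1*, microglia and related macrophages, while the RNA was taken from whole cord, where fewer cells of a type and less RNA per cell cannot be told apart. The question was which chemokines and receptors are present in the diseased cord, and whether their levels differ between the genotypes.

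Chemokines are small secreted proteins that direct the movement of leukocytes and glia along concentration gradients. They bind G protein-coupled receptors of the CC, CXC, XC and CX3C classes, and atypical receptors take them up without G protein signaling. In the diseased cord, microglia and astrocytes are known sources of CC and CXC ligands that attract blood leukocytes, whereas neurons display *Cx3cl1* (fractalkine), whose receptor *Cx3cr1* marks microglia. The Cre of these mice sits in that receptor's gene, so 1 of its copies is disrupted in every animal.

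Chemokine genes lie in clusters that arose by duplication. On GRCm38, the assembly that mm10 names, 11 of the 35 are on chromosome 11, with *Ccl2*, *Ccl7*, *Ccl12* and *Ccl8* between 82035571 and 82116799 and *Ccl5*, *Ccl9*, *Ccl6*, *Ccl3* and *Ccl4* between 83525778 and 83664683. Chromosome 5 carries the neutrophil attractants *Cxcl5*, *Cxcl1* and *Cxcl2* between 90759360 and 90905938 and the interferon-inducible *Cxcl9* and *Cxcl10* between 92321347 and 92348889. The promoters of *Cxcl1*, *Cxcl2*, *Cxcl9* and *Cxcl10* are shown because they hold motifs linked to inflammatory induction in textbook accounts. These are an NF-kappaB motif and the interferon response repeat GAAANNGAA. The RefSeq promoter sequences (GRCm38.p6) are written 5′ to 3′ on the gene's strand, in lower case with matches in capitals.
Cxcl1 (chr5:90891125-90891244, forward strand): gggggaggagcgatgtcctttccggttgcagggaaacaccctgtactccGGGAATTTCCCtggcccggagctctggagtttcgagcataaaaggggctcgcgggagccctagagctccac
Cxcl2 (chr5:90903779-90903898, forward strand): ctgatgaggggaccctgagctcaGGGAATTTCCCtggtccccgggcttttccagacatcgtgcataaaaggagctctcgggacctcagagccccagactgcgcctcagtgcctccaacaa
Cxcl9 (chr5:92328160-92328279, reverse strand): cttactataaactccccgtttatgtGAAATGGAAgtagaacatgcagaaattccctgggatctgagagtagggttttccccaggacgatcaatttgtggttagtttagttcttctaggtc
Cxcl10 (chr5:92348890-92349139, reverse strand): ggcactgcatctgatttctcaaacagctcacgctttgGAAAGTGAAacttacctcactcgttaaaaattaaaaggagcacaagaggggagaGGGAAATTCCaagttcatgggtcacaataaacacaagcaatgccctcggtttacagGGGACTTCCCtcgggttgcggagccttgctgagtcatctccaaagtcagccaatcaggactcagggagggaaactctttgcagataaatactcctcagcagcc
Capitals mark NF-kappaB matches in *Cxcl1* and *Cxcl2*, a GAAANNGAA match in *Cxcl9*, and in *Cxcl10* a GAAANNGAA match followed by 2 NF-kappaB matches. Of the 35 genes, 28 were matched in the RefSeq promoter table used here. *Ccl2*, *Ccl4*, *Ccl5*, *Ccl7*, *Cxcl5*, *Cxcl16* and *Ccr7* were not matched and so were not searched. The first promoter listed for each gene was counted, for the 28 and for all genes alike. In the 250 bases before the start, searched on both strands, an NF-kappaB match was found in 5 of the 28 (17.9%; *Cxcl1*, *Cxcl2*, *Cxcl10*, *Ccrl2* and *Ccl9*), against 3.75% of 27025 genes. A later-listed promoter of *Ccr6* also held NF-kappaB matches and is outside this count. GAAANNGAA was found in 5 (17.9%; *Cxcl9*, *Cxcl10*, *Ccr2*, *Ccl3* and *Cxcl14*), against 7.16%. *Cxcl14* is a constitutively made ligand, while *Ccl8*, *Ccl12* and *Cxcl13* held neither motif. In the sequences printed, no match of 1 motif overlapped a match of the other. A match is a run of letters and not a site of binding, and duplicated genes such as *Cxcl1* and *Cxcl2* share sequence.

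Libraries of polyadenylated RNA held between 31148047 and 40324897 counts on genes, and 19470 genes passed the filter on low counts and were tested. Levels are given in CPM, the counts of a gene relative to its library's total after TMM scaling, the between-library normalization of edgeR. Values per mouse are always given in the order E1776, E5231, E5248 and E5568 for *Ager*-deleted mice, and E5386, E5642, E6578 and E6732 for Cre controls. *Ager* itself was at 0.889, 1.51, 1.02 and 1.34 CPM in the *Ager*-deleted cords and 1.53, 2.22, 2.18 and 2.41 CPM in Cre controls, with no overlap (p = 0.0286 by exact two-sided permutation, the smallest value that 4 against 4 mice allow; adjusted p = 0.252 by edgeR's exact test). The cords had neuronal, glial and lumbar *Hox* transcripts in all 8 libraries. Summed skeletal muscle markers were 1362 and 1983 CPM in the Cre controls E5386 and E5642 against 132 to 157 CPM in the other 6 mice. E5386 also had adipocyte markers at 169 CPM against 20.6 to 30.4 CPM elsewhere, and markers of nerve root Schwann cells at 8.83 CPM against 215 to 780.1 CPM. The control E6732 held liver transcripts, with *Alb* at 452 CPM against 0.0618 to 0.762 CPM in the other 7 mice. The sum of the liver list was 3159 CPM there and 1891 to 2854 CPM in the others, most of it from *Trf*, which oligodendrocytes also express. Results that change without these 3 controls are given with and without them. Without all 3, E6578 is the only control left.

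Most of the 35 chemokine system genes were detectable in the cord. A gene was called detected when it had over 3 counts in each of the 8 mice, which corresponds to 0.0729 to 0.0975 CPM for counting error only, and 30 genes met this. *Cxcl5*, a neutrophil attractant, missed it through 1 mouse, the control E5642, with 2 counts against 7 to 18 in the others, and was still tested. The remaining 4 genes, too low to test, were *Cxcl2*, *Ccr6*, *Ccr7* and *Xcr1*. *Cxcl2*, induced with *Cxcl1* in acute inflammation, had 2 to 9 counts per mouse. *Ccr6*, the receptor of *Ccl20*, had 1 to 8 counts, and *Ccr7*, which guides lymphocytes and dendritic cells to lymph nodes, had 1 to 9. *Xcr1*, a receptor of cross-presenting dendritic cells, had 0 counts in E1776, which allows up to 0.0762 CPM, and 12 counts in E5231, the highest value. In CPM, *Xcr1* was at 0, 0.323, 0.0564 and 0.103 in *Ager*-deleted mice and 0.0547, 0.0618, 0.195 and 0.146 in Cre controls, and the genotypes overlapped. With over 10 counts required in each mouse, 28 genes were detected, and with over 3 counts in at least 1 mouse all 35 were.

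The most abundant chemokine transcripts were *Cxcl14* and *Cx3cl1*, both made constitutively. Ranked by CPM per kilobase of exon, the leading ligands were *Cxcl14*, a constitutively made chemokine of epithelia and the nervous system (49), *Cx3cl1* (46.7) and *Ccl3*, a macrophage product that binds *Ccr1* (19.1). *Ccl6*, a rodent chemokine of myeloid cells, followed closely at 18.9 CPM per kilobase. Among the listed receptors the order was *Ackr1*, an atypical receptor of venular endothelium (17.6), *Cxcr4* (7.04) and *Ackr3* (5.39). The last 2 are receptors of *Cxcl12* (6.91). The other 6 listed receptors tested lay between 0.213 (*Cxcr3*) and 1.44 (*Ccrl2*) CPM per kilobase. The rank of *Ackr1* is uncertain, since the gene overlaps *Cadm3* on the same strand and its counts may include reads of that gene. *Cx3cr1*, which is outside the list, stood above *Ackr1* at 21.9 CPM per kilobase, and it also overlaps other genes on its strand. The monocyte attractant *Ccl2* (2.92) and the neutrophil attractant *Cxcl1* (0.248) stood well below *Cxcl14* and *Cx3cl1* on this scale. Other inducible ligands, *Ccl4* (9.87), *Ccl12* (8.82) and *Cxcl10* (7.7), also stood below *Cxcl14* and *Cx3cl1*, but above *Cxcl12*. *Ccl25* (1.375) lay below *Ccl2*.

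**Figure D1:**
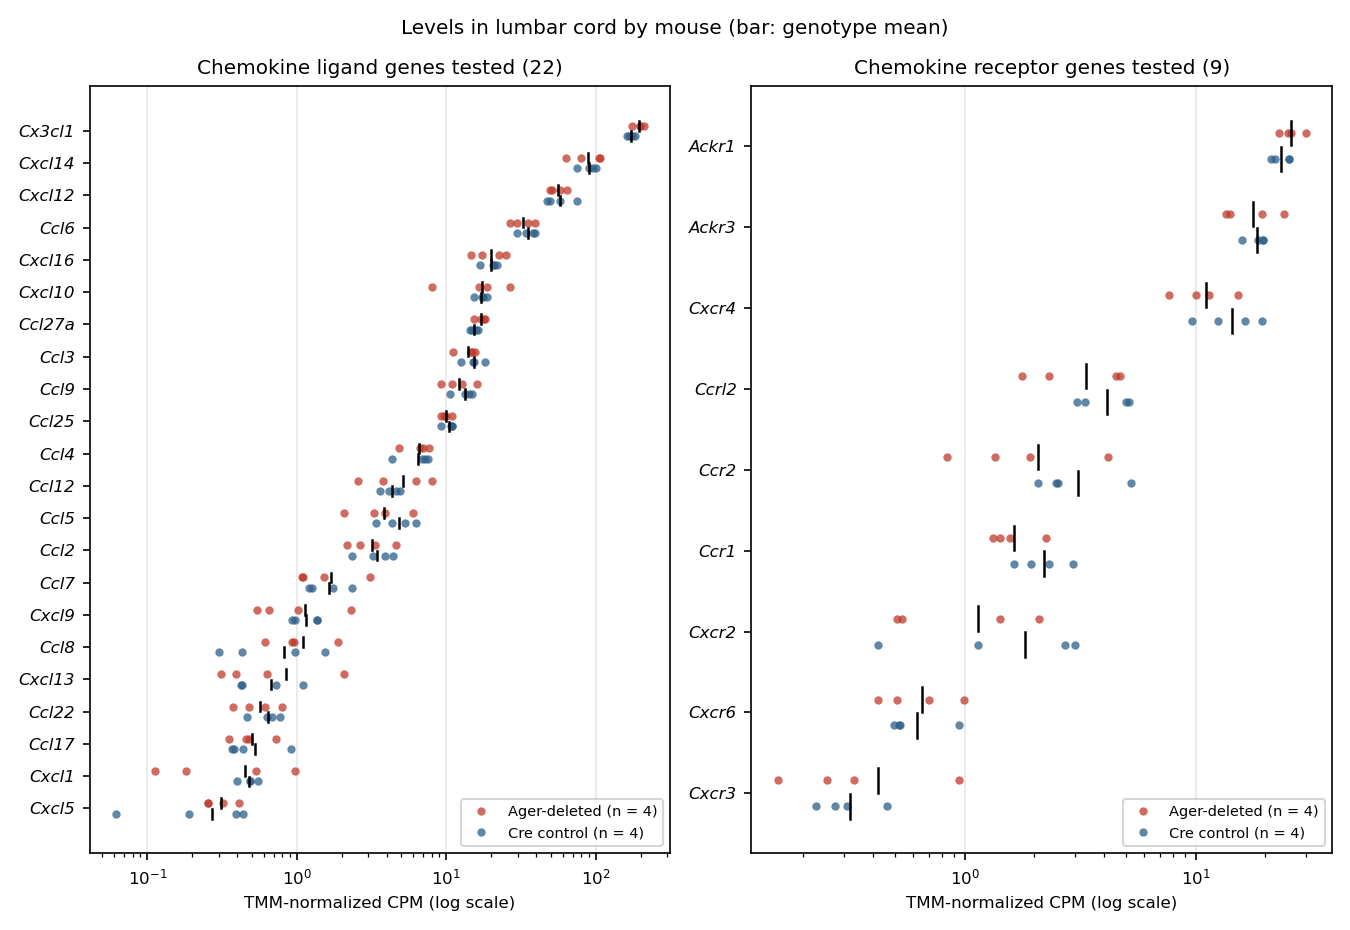
TMM-normalized CPM (log scale) of the 22 ligand and 9 receptor genes tested, 1 point per mouse (red, Ager-deleted, n = 4; blue, Cre control, n = 4) with a black bar at each genotype mean. The ligands span from under 1 CPM (Cxcl5, Cxcl1) to 210.2 CPM (Cx3cl1 in E5248), and the points of both genotypes overlap in every gene.

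No chemokine or chemokine receptor gene differed between the genotypes at an adjusted p under 0.05. Of the 31 tested genes (22 ligands and 9 receptors), 0 passed edgeR's exact test, where 14 of all 19470 genes (0.0719%) did, and 0 passed edgeR's quasi-likelihood test, where 1 gene (0.00514%) did. At an unadjusted p under 0.05, 1 gene, *Cx3cl1*, was found in each test, against 4.26% of all genes in the exact test and 6.71% by quasi-likelihood. In 0 of the 31 genes were the genotypes free of overlap, as they were in 3.88% of all genes. By the exact test the adjusted p was 1 for each of the 31, and by quasi-likelihood it was between 0.742 and 0.998 (edgeR).

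The estimates lay on either side of 0. By sign, 12 genes were higher and 19 lower in *Ager*-deleted mice (61.3% lower, against 48% of all genes tested). The median log2 fold change (*Ager*-deleted over Cre control) was -0.042, against 0.0069 over all genes. The ligands were split 9 to 13 with a median of -0.024, and the receptors 3 to 6 with a median of -0.30, which rests on 9 genes. The extremes were *Cxcr2* at -0.67 and *Ccl8* at 0.42. The count of genes higher in *Ager*-deleted mice fell to 6 without E5231 and was 19 without the controls E5386, E5642 and E6732, so the balance of signs moved with the mice included.

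How far a difference could still lie is shown by the 95% intervals of the quasi-likelihood fit. For 23 of the 31 genes the interval stayed within a 2-fold change in either direction, and for 12 it stayed within 1.5-fold. It reached 2-fold for the other 8, whose genotype means did not exceed 4.12 CPM. The narrowest intervals were those of *Cx3cl1*, *Ccl27a*, *Ccl25* and *Ackr1*, and the widest those of *Cxcr2*, *Cxcl13*, *Cxcl1* and *Cxcr3*.

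**Figure D2:**
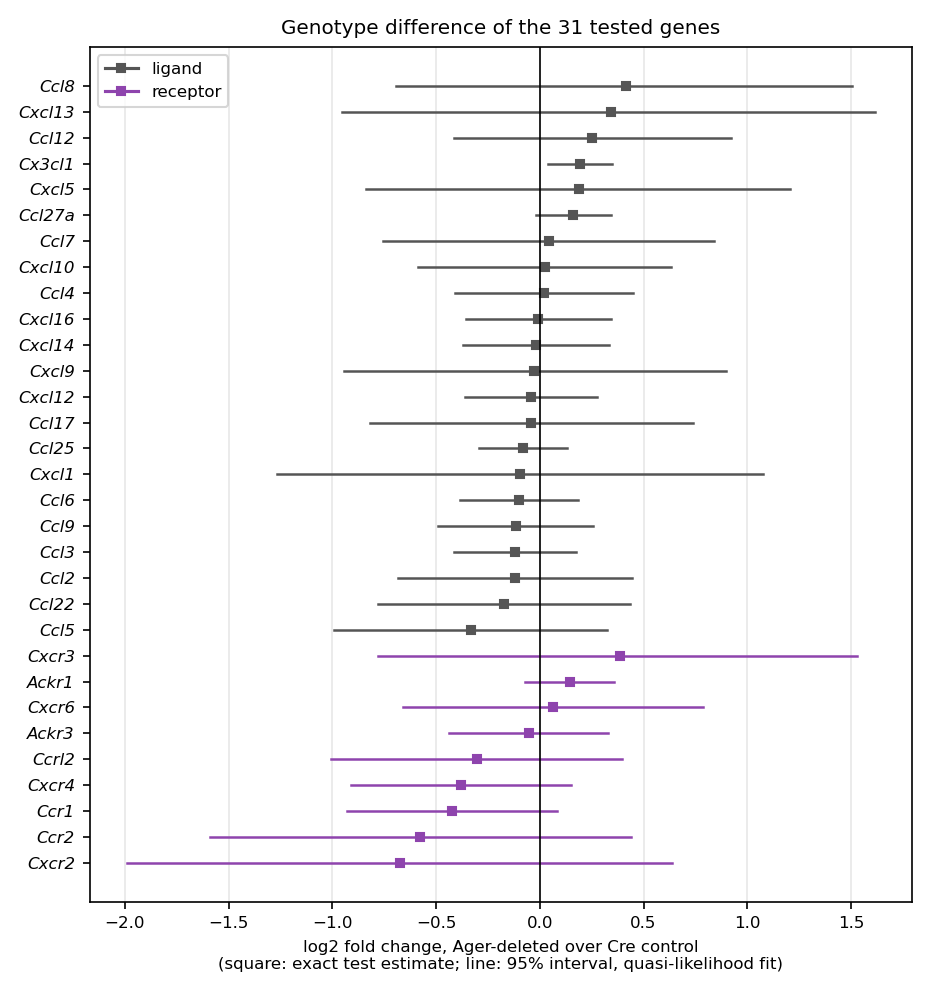
Log2 fold change of each of the 31 tested genes, Ager-deleted over Cre control, as the exact test estimate (square) with the 95% interval of the quasi-likelihood fit (line), ligands in gray and receptors in purple. The interval of Cx3cl1 (1.03 to 1.27-fold) is the only 1 that leaves out 0 on the log2 axis, before any adjustment for the 19470 genes, and that of Cxcr2 (0.252 to 1.56-fold) is the widest.

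The neuronal ligand *Cx3cl1* had the smallest p of the 31 genes. It was at 199, 176, 210.2 and 198 CPM in the *Ager*-deleted cords and 176, 161, 166 and 182 CPM in Cre controls. Of the *Ager*-deleted mice, 3 lay above every control, and E5231 lay among the controls. The means were 196 ± 14.4 CPM (SD, n = 4) against 171 ± 9.41 CPM (SD, n = 4), which gives a log2 fold change of 0.19 (standard error 0.07). In edgeR's exact test p was 0.033 unadjusted and 1 adjusted, and by quasi-likelihood the values were 0.0199 and 0.742 (edgeR). Its estimate stayed between 0.16 and 0.24 with each mouse left out in turn. Summed neuronal markers, 7 of 7 tested, were 2121, 1994, 2737 and 2548 CPM in the *Ager*-deleted cords and 2142, 2326, 2630.0 and 2414 CPM in Cre controls. In both measures E5248 was the highest and E5231 the lowest *Ager*-deleted mouse, while the order among controls differed. Of the single markers, *Snap25*, *Syt1* and *Slc17a6* were highest in E5248 among *Ager*-deleted mice. *Rbfox3*, *Tubb3*, *Slc32a1* and *Chat* were highest in other *Ager*-deleted mice. The part of the neuronal markers in the *Cx3cl1* result was not tested.

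Its receptor *Cx3cr1*, the gene that carries the Cre, is not among the 35. It was at 109.7, 123, 75.5 and 80.5 CPM in the *Ager*-deleted cords and 111, 92.3, 101 and 97.5 CPM in Cre controls, and it differed by -0.048 on the log2 scale (standard error 0.14), with adjusted p = 1 by edgeR's exact test. The *Ager*-deleted mice enclosed the controls, with E5231 highest and E5248 lowest.

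The constitutive CXC ligands *Cxcl14* and *Cxcl12*, and also *Cxcl16*, were at close mean levels in the genotypes. *Cxcl14* was at 107, 106, 62.9 and 80.3 CPM in the *Ager*-deleted cords and 95.5, 99.7, 89.9 and 75.5 CPM in Cre controls. The lowest and the highest mouse were both *Ager*-deleted, so the means of 89 ± 21.3 CPM (SD, n = 4) against 90.2 ± 10.6 CPM (SD, n = 4) differed by far less than the spread within that genotype (log2 fold change -0.019, standard error 0.16). *Cxcl12*, the ligand of *Cxcr4* and *Ackr3*, was at 57.8, 64, 51.3 and 49.4 CPM in the *Ager*-deleted cords and 57.7, 47.4, 49.1 and 74.9 CPM in Cre controls. Here the highest mouse was the control E6732, and the log2 fold change was -0.042 (standard error 0.14). *Cxcl16*, a transmembrane chemokine that binds *Cxcr6*, ranged from 14.6 CPM in E5248 to 25 CPM in E5231, with all controls between them, and its log2 fold change was -0.0063.

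The CC ligands of macrophages showed the same overlap. *Ccl3* was at 15.6, 14.9, 11.1 and 14.6 CPM in the *Ager*-deleted cords and 18.1, 15.3, 12.6 and 15 CPM in Cre controls, a log2 fold change of -0.12 (standard error 0.13; 95% interval 0.751 to 1.13-fold). Its highest mouse was the control E5386 and its lowest E5248. Its neighbor *Ccl4*, an attractant of macrophages and T cells, had a log2 fold change of 0.02, and *Ccl5*, which binds *Ccr1*, one of -0.33 (95% interval 0.503 to 1.25-fold). *Ccl6* and *Ccl9*, both rodent ligands of *Ccr1*, had log2 fold changes of -0.099 and -0.12. For *Ccl4*, *Ccl5*, *Ccl6* and *Ccl9* at least 1 mouse of each genotype lay inside the range of the other.

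The monocyte attractants *Ccl2*, *Ccl7* and *Ccl12*, ligands of *Ccr2*, and their neighbor *Ccl8* stayed at or below 7.98 CPM in every mouse. Per kilobase of exon, *Ccl2* was at 2.92 CPM and *Ccl12* at 8.82 CPM, the latter above *Cxcl12* at 6.91 CPM. *Ccl2* was at 3.33, 4.58, 2.17 and 2.64 CPM in the *Ager*-deleted cords and 2.35, 4.38, 3.22 and 3.89 CPM in Cre controls, a log2 fold change of -0.12 (standard error 0.25). Mice near the top and near the bottom came from both genotypes. *Ccl12*, a mouse gene of the same cluster, was at 6.27, 7.98, 2.57 and 3.77 CPM in the *Ager*-deleted cords and 4.62, 3.58, 4.94 and 4.16 CPM in Cre controls. The 4 controls were close together, while of the *Ager*-deleted mice E5231 and E1776 lay above all of them, E5568 among them and E5248 below. *Ccl7* and *Ccl8* of the same cluster had log2 fold changes of 0.046 and 0.42, with E5231 the highest mouse in both. The interval of *Ccl8*, 0.618 to 2.84-fold, spans changes in either direction, and its log2 fold change was 0.021 without E5231 and 0.13 without E5386.

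The interferon-inducible ligands of *Cxcr3* spread more between mice than between genotypes. *Cxcl10* was at 18.7, 26.7, 8.04 and 16.5 CPM in the *Ager*-deleted cords and 18.7, 17.3, 17.6 and 15.2 CPM in Cre controls. Again the controls were close together, while the *Ager*-deleted mice held the highest (E5231) and the lowest (E5248) value. The means were 17.5 ± 7.65 CPM (SD, n = 4) against 17.2 ± 1.44 CPM (SD, n = 4), and the log2 fold change was 0.023 (standard error 0.27). *Cxcl9* was at 1.02, 2.32, 0.649 and 0.543 CPM in the *Ager*-deleted cords and 0.93, 1.36, 1.37 and 0.973 CPM in Cre controls, where E5231 stood highest, and its log2 fold change was -0.028. As the sequences above show, *Cxcl10* carries both kinds of motif and *Cxcl9* only the interferon repeat in the stretch printed.

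*Cxcl1*, *Cxcl13*, *Ccl17* and *Ccl22* lay mostly below 1 CPM. *Cxcl1*, the neutrophil attractant, was at 0.533, 0.97, 0.113 and 0.181 CPM in the *Ager*-deleted cords and 0.547, 0.401, 0.488 and 0.486 CPM in Cre controls. The controls agreed closely, and the *Ager*-deleted mice again ran from E5248 at the bottom to E5231 at the top. *Cxcl13*, a B cell attractant that binds *Cxcr5*, was at 0.635, 2.08, 0.395 and 0.31 CPM in the *Ager*-deleted cords and 1.09, 0.432, 0.423 and 0.729 CPM in Cre controls. E5231 was 3.89 times the median of the 8 mice, and without it the log2 fold change went from 0.34 to -0.59. *Ccl17* and *Ccl22*, ligands of *Ccr4* made by dendritic cells, lay between 0.35 and 0.91 CPM and between 0.377 and 0.801 CPM, with log2 fold changes of -0.044 and -0.17. In both, E5231 was the lowest mouse, unlike in most of the 31 genes.

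*Ccl25*, a thymic and intestinal chemokine, and *Ccl27a*, an epithelial one, had the most even levels of the 31. *Ccl25* ranged from 9.23 to 11 CPM with a log2 fold change of -0.081, and *Ccl27a* from 14.4 to 18.2 CPM with 0.16 (95% interval 0.987 to 1.27-fold). Both are uncertain as chemokine signals. *Ccl27a* overlaps *Il11ra1* on the opposite strand and has a near-identical copy, *Ccl27b*, and *Ccl25* overlaps *Elavl1* on the opposite strand. The kit was stranded, but the strand setting of the counting was not given in the sources used here. The same holds for *Cxcl10* with *Art3*, *Cxcl16* with *Zmynd15*, *Ccl2* with Gm17268, *Ccl6* with E230016K23Rik and *Cxcr6* with *Fyco1*.

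The signaling receptors of macrophages and glia did not pass the test either. *Ccr1*, the receptor of *Ccl3* and *Ccl5*, was at 1.42, 2.24, 1.33 and 1.58 CPM in the *Ager*-deleted cords and 1.64, 2.93, 2.31 and 1.95 CPM in Cre controls. Only E5231 of the *Ager*-deleted mice exceeded the lowest control, and the log2 fold change was -0.42 (95% interval 0.525 to 1.06-fold). *Cxcr4*, the receptor of *Cxcl12*, was at 11.4, 15.2, 7.68 and 10.1 CPM in the *Ager*-deleted cords and 12.5, 19.3, 9.59 and 16.3 CPM in Cre controls, a log2 fold change of -0.38 (standard error 0.24). The genotypes overlapped widely. Without the controls E5386, E5642 and E6732 the estimate was 0.21, set against E6578 alone, the lowest control.

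The receptors of blood leukocytes are given beside the marker genes of those cells, since both varied widely from mouse to mouse. *Cxcr2*, the neutrophil receptor of *Cxcl1* and *Cxcl2*, was at 0.508, 2.1, 0.536 and 1.42 CPM in the *Ager*-deleted cords and 3.01, 2.72, 0.423 and 1.14 CPM in Cre controls. The 3 lowest mice (E6578, E1776 and E5248) and the 3 highest (E5386, E5642 and E5231) each included both genotypes. The summed neutrophil markers, 11 of 11 genes tested, were 94.3, 334, 115 and 215 CPM and 340.0, 309, 116 and 209 CPM in the same order, with *S100a8* from 6.58 CPM in E1776 to 68.9 CPM in E5386. *S100a9*, *Ly6g* and *Ltf* were also highest in E5386. *Elane*, *Camp*, *Ngp* and *Csf3r* were highest in E5231, and *Mpo*, *Retnlg* and *Mmp8* in E5642. The controls with the highest values are the libraries with skeletal muscle transcripts. Without E5386 and E5642 the log2 fold change of *Cxcr2* turned from -0.67 to 0.52, and without E6732 as well to 1.42, where the lone control left is assumed to vary like the other genotype. With each mouse left out it ran from -1.14 (without E5231) to -0.33 (without E5386). The part of neutrophils in this gene's difference was not tested.

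*Ccr2*, the receptor of *Ccl2* on inflammatory monocytes, was at 0.838, 4.18, 1.35 and 1.91 CPM in the *Ager*-deleted cords and 2.54, 5.25, 2.08 and 2.48 CPM in Cre controls. The control E5642 was highest and E1776 lowest. The summed markers of border macrophages and monocytes, 10 of 10 genes tested, were 21.3, 54.1, 38.1 and 46.2 CPM and 33.5, 77.7, 50.8 and 45 CPM, with the same highest and lowest mouse. *Chil3* made up 33 CPM of the sum in E5642. *Lyve1*, *F13a1* and *Clec4e* were also highest there, whereas *Mrc1*, *Cd163*, *Pf4*, *Cbr2*, *Ly6c2* and *Plac8* were highest in other mice. The log2 fold change of *Ccr2* was -0.58 (standard error 0.46). It ran from -1.17 (without E5231) to -0.20 (without E5642) with each mouse left out, and was -0.15 without the controls E5386 and E5642 and -0.0098 without E6732 as well.

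*Cxcr3*, the receptor of *Cxcl9* and *Cxcl10* on activated T and natural killer (NK) cells, was at 0.33, 0.943, 0.254 and 0.155 CPM in the *Ager*-deleted cords and 0.273, 0.309, 0.228 and 0.462 CPM in Cre controls. E5231 was over 3 times the median of the 8 mice, and without it the log2 fold change went from 0.39 to -0.39. The summed T and NK cell markers, of which 9 of 15 passed the filter, were 7.42, 15.2, 7.65 and 9.77 CPM and 7.55, 10.2, 8.97 and 11.1 CPM, also highest in E5231. Of the 15, *Cd8a* was highest there, at 1.32 CPM against 0.203 to 0.71 CPM in the others. So were *Cd3d*, *Cd3e*, *Cd8b1*, *Trbc2*, *Cd2*, *Lck*, *Nkg7* and *Ncr1*. By contrast, *Cd3g*, *Cd4*, *Trac*, *Gzma*, *Gzmb* and *Klrb1c* were highest in other mice. *Cxcr6*, a receptor of memory T cells that binds *Cxcl16*, ranged from 0.423 CPM in E5248 to 0.997 CPM in E5231, with a log2 fold change of 0.066. Whether the blood cells were in the tissue or in its vessels was not tested.

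**Figure D3:**
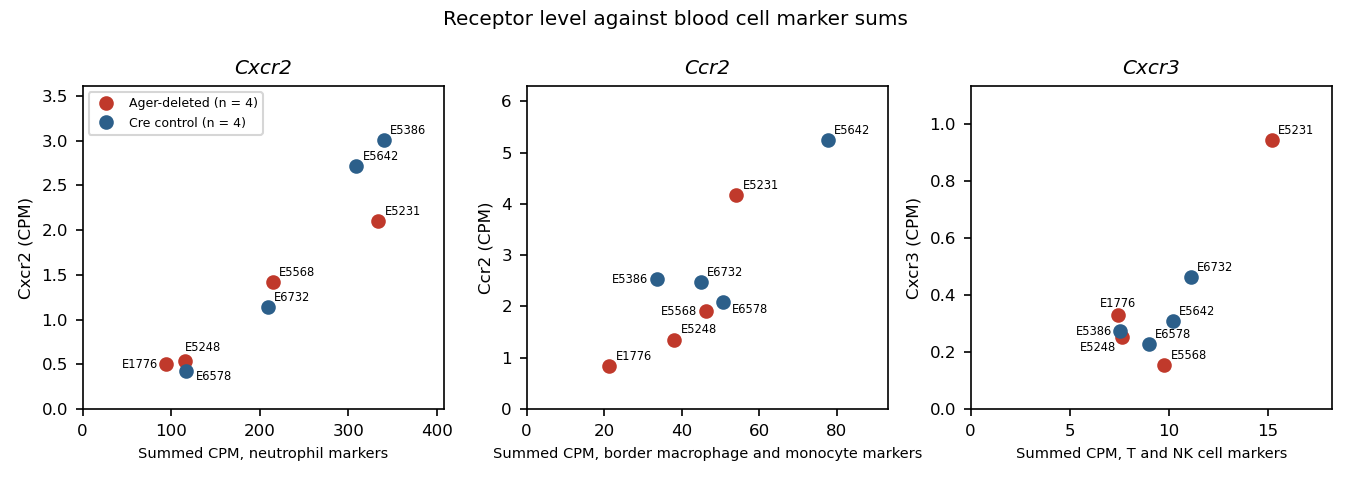
CPM of Cxcr2, Ccr2 and Cxcr3 (vertical axes) against the summed CPM of neutrophil, border macrophage and monocyte, and T and NK cell markers (horizontal axes), 1 point per mouse (red, Ager-deleted; blue, Cre control). Cxcr2 is highest in E5386 (3.01 CPM), Ccr2 in E5642 (5.25 CPM) and Cxcr3 in E5231 (0.943 CPM), each the mouse with the highest marker sum in its panel. The neutrophil sum of E5386 (340 CPM) is close to that of E5231 (334 CPM).

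The atypical receptors did not pass the test either. *Ackr1* was at 25.9, 22.9, 29.9 and 25.2 CPM in the *Ager*-deleted cords and 22, 25.4, 25.3 and 21.1 CPM in Cre controls, a log2 fold change of 0.15 (standard error 0.097). The range was the narrowest of the receptors. The gene lies at chr1:173331886-173333750 on GRCm38 and overlaps *Cadm3*, an adhesion gene on the same strand at 294 and 277 CPM in the genotypes, so its counts may include reads of that gene. *Ackr3*, which scavenges *Cxcl12*, was at 19.3, 24, 13.5 and 14.1 CPM in the *Ager*-deleted cords and 18.5, 19.5, 15.8 and 19.6 CPM in Cre controls, a log2 fold change of -0.053 (standard error 0.17). E5231 was highest and E5248 lowest. *Ccrl2*, which binds chemerin, ran from 1.78 CPM in E5248 to 5.13 CPM in E5642, with a log2 fold change of -0.30 (95% interval 0.498 to 1.32-fold).

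The spread between mice was wider for the chemokine system than for the median gene. The highest mouse exceeded the lowest by a median of 2.36-fold over the 31 genes, against 1.42-fold over all genes tested, whose median level is higher (15.3 against 4.32 CPM). Among genes with a mean of at least 10 CPM, the values were 1.62-fold for 13 chemokine system genes and 1.27-fold for 11059 genes, where the median levels were 18.1 and 42.5 CPM. A pair of *Ager*-deleted mice stood at the ends. E5231 was the highest mouse for 14 of the 31 genes (45.2%, against 17.1% of all genes), and E5248 was the lowest for 15 (48.4%, against 18.1%). On the log2(CPM + 1) scale the median deviation from the mean of the 8 mice was 0.33 in E5231 and -0.34 in E5248, while it was between -0.16 and 0.071 in the other 6. In E5231, 26 of the 31 genes lay above the mean, and in E5248, 5 did. The 5 that lay above the mean in E5248 were *Cx3cl1*, *Ackr1*, *Ccl8*, *Ccl25* and *Ccl27a*.

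**Figure D4:**
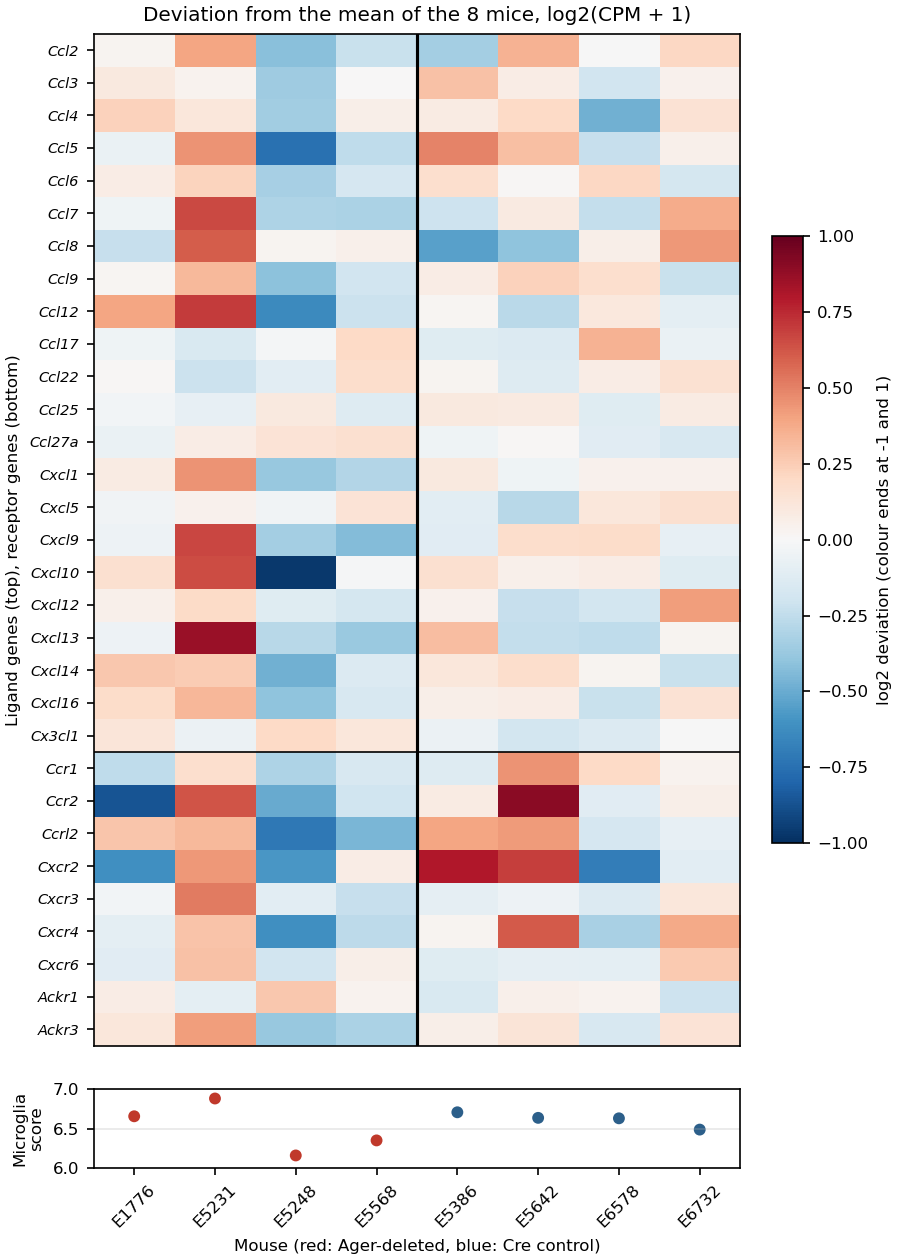
Deviation of each tested gene from the mean of the 8 mice on the log2(CPM + 1) scale (color, red above and blue below), with ligands above and receptors below the thin line and Ager-deleted mice left of the thick line. The lower panel gives the pan-microglial score of each mouse (mean log2(CPM + 1) of 15 marker genes), which is highest in E5231 (6.88) and lowest in E5248 (6.16), the mice with the most red and the most blue rows (highest in 14 and lowest in 15 genes).

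The pan-microglial markers showed the same pair of mice at their ends. Their summed level, over 15 of 15 genes tested and with *Cx3cr1* left out, was 2845, 3227, 1824 and 2145 CPM in the *Ager*-deleted cords and 2701, 2675, 2580.0 and 2337 CPM in Cre controls. Other marker sums also had 1 of the pair at an end. The astrocyte sum was lowest in E5248, at 9618 CPM against 11270 to 14340 CPM in the others. The neuronal sum given above was lowest in E5231 and highest in E5248. The lumbar *Hox* sum was highest in E5248, at 158 CPM against 97.1 to 136 CPM in the others. The part of these other markers in the spread was not tested. The microglial score, the mean log2(CPM + 1) of the 15 genes, was added to edgeR's quasi-likelihood fit beside genotype after the pattern had been seen. On it, 8 of the 31 genes had a positive slope at an adjusted p under 0.05, where 1.81% of all genes did. They were the ligands *Ccl5*, *Ccl6*, *Ccl9*, *Ccl12*, *Cxcl1*, *Cxcl10* and *Cxcl14* and the receptor *Ccrl2*. *Cxcl10* rose by 1.96 log2 units per log2 unit of the score (standard error 0.32, adjusted p = 0.0195), *Ccl12* by 2.11 (0.34, adjusted p = 0.02), *Cxcl14* by 1.12 (0.19, adjusted p = 0.021) and *Cxcl1* by 3.91 (0.68, adjusted p = 0.0234). The slopes of *Cxcl12* (0.26, standard error 0.34) and *Cx3cl1* (-0.31, standard error 0.13) were not called. The calls of these slopes rest on the mice at the ends. Without E5231 or without E5248, 0 of the 31 genes and 0 of all genes were called, and likewise without E5248 and E5568, the mice farthest from the median score. In that last fit the estimates of the 8 genes stayed positive, with *Cxcl10* at 1.8 (standard error 0.43) and *Ccl12* at 1.05 (standard error 0.86). With the score in the fit, 0 of the 31 genes passed the test between genotypes (smallest adjusted p 0.349).

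**Figure D5:**
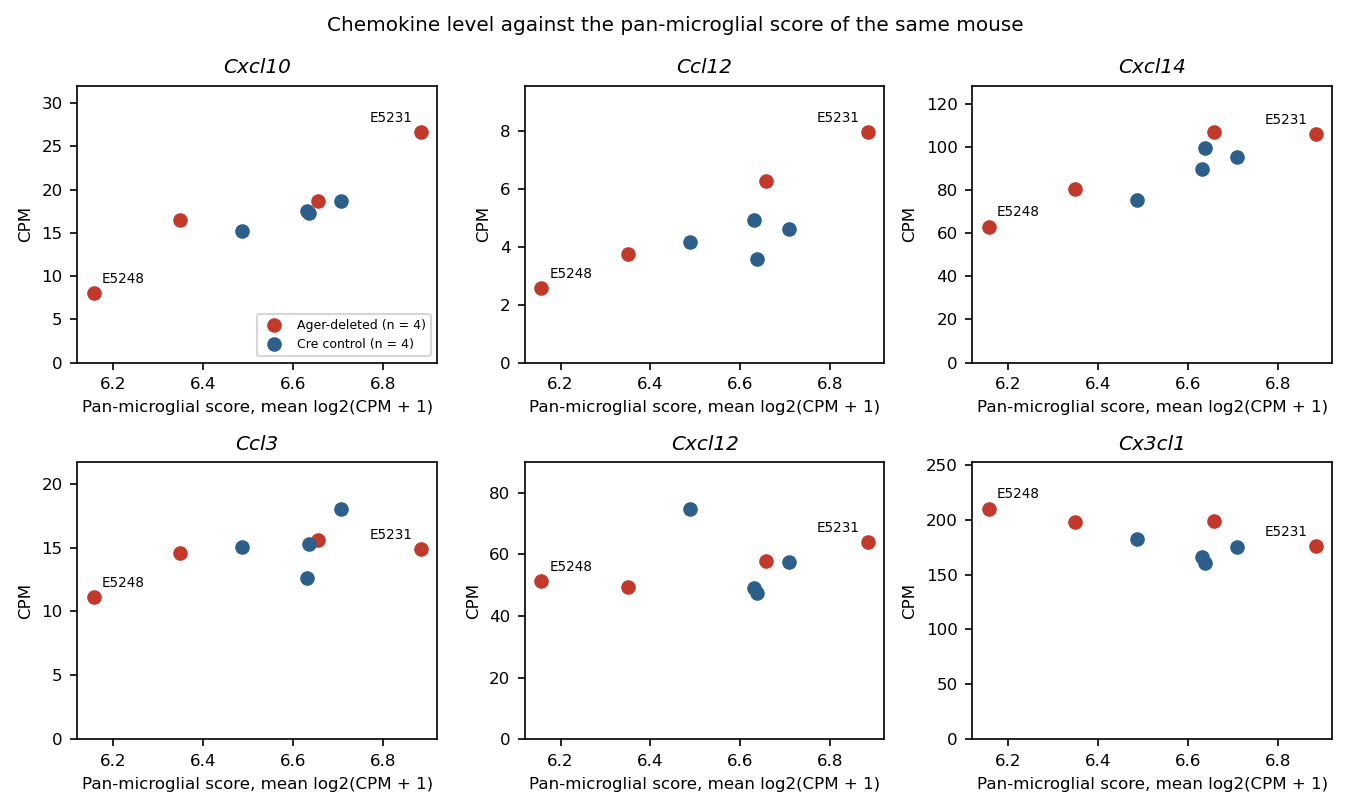
CPM of 6 ligands (vertical axes, from 0) against the pan-microglial score (horizontal axes), 1 point per mouse (red, Ager-deleted, n = 4; blue, Cre control, n = 4). Cxcl10, Ccl12 and Cxcl14 rise from E5248 toward E5231 (Cxcl10 from 8.04 to 26.7 CPM), whereas Ccl3 and Cxcl12 show no called slope and Cx3cl1 runs slightly down.

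Other genes of the chemokine pathway, in 5 further lists, also held 0 genes with an adjusted p under 0.05 in edgeR's exact test, and 1 (*Dpp4*) with an unadjusted one. Of 15 other ligands 6 were tested, 1 higher and 5 lower by sign in *Ager*-deleted mice, and of 12 other receptors 5 were tested, 1 higher and 4 lower. *Cxcr5*, the receptor of *Cxcl13*, was too low to test, at 0 to 11 counts. Among 34 signaling genes below the receptors (G proteins, receptor kinases, arrestins and Rac regulators), 13 were higher and 21 lower with a median log2 fold change of -0.021, and among 16 factors that induce chemokine genes (NF-kappaB, IRF and STAT members) 10 were higher and 6 lower with a median of 0.029. In 3 genes of the 5 lists, named after their values were seen, the genotypes did not overlap, as in 3.88% of all genes. They were the receptor *Ccr9*, lower in *Ager*-deleted mice with a log2 fold change of -0.44, and the receptor kinases *Grk2* and *Grk6*, higher with 0.091 and 0.11, each at adjusted p = 1 in edgeR's exact test. Neither the signaling genes nor the inducing factors held a gene with an unadjusted p under 0.05 in the exact test.

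Of 8 enzymes that trim or shed chemokines, 2 were higher and 6 lower, and *Dpp4*, which removes the N-terminal residues of *Cxcl10* and *Cxcl12*, was the only one with an unadjusted p under 0.05 in the exact test. It was at 0.864, 1.59, 1.16 and 1.21 CPM in the *Ager*-deleted cords and 1.04, 1.95, 1.3 and 7.76 CPM in Cre controls. The control E6732 stood far above all the others, and the other controls overlapped the *Ager*-deleted mice (log2 fold change -1.32, standard error 0.58; edgeR's exact test, p = 0.0244, adjusted p = 1). E6732 is the library with liver transcripts, and *Dpp4* is also expressed in liver and meninges. The sum of leptomeningeal fibroblast markers was highest in E6732 as well, at 1429 CPM. It was 1261 CPM in E5642, 1247 CPM in E6578, 495 CPM in E5386 and 671 to 801 CPM in *Ager*-deleted mice. The part of liver and meningeal cells in the *Dpp4* value was not tested.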

How the data were processed

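Lumbar spinal cord RNA of 8 male mice was analysed, grouped by the labelled genotype. The counts the authors deposited are unnormalized reads per gene, made with Trimmomatic 0.36, STAR 2.7.3a (mm10) and featureCounts of Subread 1.6.3 on GENCODE M25. They also deposited a table of TMM-normalized log2 values, which was not used. Columns were assigned to mice by ID, and none was a pool.

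Genes were filtered with filterByExpr (minimum 10 counts) and normalized with TMM in edgeR 4.0.16 (R 4.3.3). An exact test with dispersions from estimateDisp was the main test, which the study's methods name, and the quasi-likelihood test gave standard errors and intervals. Benjamini-Hochberg adjustment was over all 19470 genes. Log2 fold changes are *Ager*-deleted over Cre control. Single values used log2(CPM + 1) and the 70 assignments of 8 mice. The edgeR, DESeq2 and limma-voom tests between genotypes were tried on simulated counts. The planted changes were larger than any main estimate among the 31 genes. The permutation, the slopes on the microglial score and the rule for flagged values were not simulated. The libraries differed from each other beyond counting noise in all 28 pairs (chi-square per degree of freedom 17.3 or more). Detection floors cover counting error only, whereas the intervals of the fit include the spread between mice. The labels name mice as the replicates.

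The 35 genes, the marker and pathway lists and the tests were chosen with earlier results of these data known. Of the 35, those given per mouse by rule were genes without overlap or with an unadjusted p under 0.05, the 3 ligands and 3 receptors highest per kilobase, genes whose highest mouse exceeded 3 times the median, and their partners. *Ccl12*, *Cxcl1*, *Cxcr2* and *Ccr2* and the slopes on the microglial score were added after values were seen. The values of 1 gene in the list of other receptors are not reported here. The lengths, positions and overlaps are from GENCODE M21 on GRCm38, an earlier release matched by symbol. Protein sequences were not used here. Alternatives covered normalization, filters, DESeq2 1.42.0, limma-voom (limma 3.58.1), dispersions, thresholds, a microglial covariate and mice left out.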

Additional observations from a re-analysis of the deposited data

Results flagged for a closer look

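In a group of 4 mice, a value was picked out when its gap to the nearest mouse exceeded Dixon's 95% critical share of the group's range. Of 68 groups tested, about 1 in 20 would be picked by chance, and 5 were, all in Cre controls. *Ccl17*, a dendritic cell ligand, was at 0.91 CPM in E6578 against 0.371 to 0.438 CPM in the other controls, and *Ccl25* was lowest in the same mouse, at 9.3 CPM against 10.8 to 10.99 CPM. *Ccr2*, the monocyte receptor, was at 5.25 CPM in E5642 against 2.08 to 2.54 CPM, in the mouse with the highest sum of border macrophage and monocyte markers. *Cxcr6* was at 0.948 CPM in E6732 against 0.492 to 0.525 CPM. *Dpp4*, a chemokine-trimming protease, was at 7.76 CPM in E6732 against 1.04 to 1.95 CPM. The causes of these 5 values were not tested.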

How the results depend on the processing

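No paired analysis was possible because the labels give no replicate numbers shared between the genotypes. Under the 20 alternatives run per gene, the 31 genes gave 615 values of the log2 fold change. None passed an adjusted p under 0.05 (smallest 0.349), 545 kept their sign and 70 turned it. The median of the 31 lay between -0.21 and 0.072 with each mouse left out. It was 0.11 without the controls E5386, E5642 and E6732, a setting that leaves E6578 as the only control. Depth left 4 of the 35 genes untested, and the 8 intervals that reach a 2-fold change include the spread between mice as well as counting error.

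The count of all genes at an adjusted p under 0.05, 14 in the exact test, was 1 in the quasi-likelihood test, 78 with common and tagwise dispersions, 25 with DESeq2, 1 with limma-voom, 48 at an adjusted p under 0.10, 67 without E5386 and E5642, 6 without E5386, E5642 and E6732, and 3 to 98 with each mouse left out. The fold change of *Ager* was between -0.942 and -0.689 with each mouse left out, and its adjusted p fell to 0.0442 without E5386. The number of chemokine system genes higher in *Ager*-deleted mice was 6 (without E5231) to 18 with each mouse left out and 19 without the 3 controls. Genes without overlap numbered 0 to 3 with each mouse left out (3 without E5231: *Cx3cl1*, *Ccr1* and *Ccr2*, where 7.68% of all genes had none), 1 without E5386 and E5642 (*Ccl27a*; 12.8%) and 6 without the 3 controls (35%). Slopes on the microglial score, 8 in the fit described, numbered 0 without E5248 and E5568, 5 with library size only, 13 without the 3 controls and 0 to 10 with each mouse left out.

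The following log2 fold changes turned sign, and the cause was not tested. With library size only, *Cxcl14* was 0.0077, *Cxcl16* 0.017 and *Cxcl9* 0.0030. With limma-voom, *Ccl17* was 0.012, *Ccl7* -0.059 and *Cxcl10* -0.084. With the microglial score as a covariate, *Ackr3* was 0.015, *Cxcl14* 0.073, *Cxcl16* 0.056 and *Cxcl9* 0.028. Without E5386 and E5642, *Ccl3* was 0.016, *Ccl7* -0.080, *Ccl8* -0.23, *Ccrl2* 0.062, *Cxcl14* 0.10, *Cxcl16* 0.035, *Cxcl5* -0.42, *Cxcr2* 0.52 and *Cxcr6* -0.19. Without E6732 as well, *Ackr3* was 0.16, *Ccl25* 0.097, *Ccl3* 0.16, *Ccl5* 0.18, *Ccrl2* 0.13, *Cxcl10* -0.0071, *Cxcl12* 0.18, *Cxcl16* 0.25, *Cxcl5* -0.32, *Cxcr2* 1.42 and *Cxcr4* 0.21. With each mouse left out, *Ackr3* ranged from -0.23 to 0.059, *Ccl12* from -0.038 to 0.47, *Ccl17* from -0.27 to 0.34, *Ccl2* from -0.35 to 0.023, *Ccl4* from -0.13 to 0.14, *Ccl7* from -0.41 to 0.28, *Cxcl1* from -0.78 to 0.22, *Cxcl10* from -0.25 to 0.26, *Cxcl12* from -0.13 to 0.12, *Cxcl13* from -0.59 to 0.67, *Cxcl14* from -0.12 to 0.12, *Cxcl16* from -0.14 to 0.12, *Cxcl5* from -0.13 to 0.55, *Cxcl9* from -0.64 to 0.20, *Cxcr3* from -0.39 to 0.66 and *Cxcr6* from -0.21 to 0.36.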
